A study of Homo sapiens with 10 samples.

Results

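Collagen chain genes are the genes that encode the polypeptide chains of the collagens. They were taken from the count table by name, as COL, a type number, A and a chain number. COL17A1, which encodes the collagen of hemidesmosomes, was left out by that rule. It found 43 genes among the 58735 of the table. Of these, 29 had at least 10 counts in 2 or more of the 6 libraries and are reported in full, and 14 were under that limit. RNA was sequenced from A253, a human cell line from a squamous cell carcinoma of the salivary gland. The 6 libraries fall into 3 groups of 2. The control carried a guide RNA against dTomato, a red fluorescent protein. Cl1 and Cl10 are clones that each grew from a single cell and are heterozygous (DUSP1-/+) for the loss of exon 2 of DUSP1, the gene of a phosphatase that inactivates MAP kinases. The paper reports that DUSP1 protein was not seen in either clone. All 3 groups carried lentiviral Cas9 and had been selected with blasticidin and puromycin. The clones were made with 2 guide RNAs, against the introns on both sides of exon 2, so the groups were not matched in guides. Each genotype with the deletion is represented by these clones alone, so what belongs to the deletion and what belongs to a clone cannot be told apart.

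Collagen chains assemble in groups of like or unlike chains that wind around each other into a rope-shaped helix. Fibrillar collagens build banded fibrils, and type IV collagen builds the network of basement membranes, the thin sheets on which epithelia rest. Type VI forms beaded filaments, type VII forms the anchoring fibrils that tie a squamous epithelium to the tissue under it, and the FACITs (fibril-associated collagens with interrupted helices) sit on the surface of fibrils. Much of the collagen of a tissue is made by fibroblasts, while epithelial cells make basement membrane collagens and type VII.

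The sequence before the start site is shown for the 2 genes called in the same direction in both clones, COL16A1 and COL13A1, for COL28A1, which was called only in the comparisons of Cl10, and for the pair COL4A1 and COL4A2, whose start sites face away from each other and share 1 stretch of DNA. The first 3 give the 250 bases before a RefSeq start, on the strand of the gene. The last gives the 126 bases between both RefSeq starts, on the strand of COL4A2. All are from RefSeq on GRCh38.p14, whose starts can differ from those of the GENCODE v44 annotation. The COL16A1 stretch lies inside the GENCODE gene, which starts at 31704319 on the minus strand. That of COL13A1 runs past the GENCODE start at 69801880, and COL4A2 begins at 110305812 in GENCODE. Capitals mark matches to GGGCGG (a GC box), CCAAT and TATAAA on either strand.
COL16A1, chr1:31704018-31704267, minus strand: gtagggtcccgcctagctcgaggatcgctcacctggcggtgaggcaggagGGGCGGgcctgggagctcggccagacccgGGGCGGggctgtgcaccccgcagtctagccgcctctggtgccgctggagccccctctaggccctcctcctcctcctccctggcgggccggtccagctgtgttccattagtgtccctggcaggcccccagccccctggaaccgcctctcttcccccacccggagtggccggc
COL13A1, chr10:69801656-69801905, plus strand: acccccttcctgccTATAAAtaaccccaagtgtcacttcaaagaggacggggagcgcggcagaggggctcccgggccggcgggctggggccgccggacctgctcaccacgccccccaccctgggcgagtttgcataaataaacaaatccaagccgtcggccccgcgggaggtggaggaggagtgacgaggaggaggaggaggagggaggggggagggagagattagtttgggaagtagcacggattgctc
COL28A1, chr7:7535874-7536123, minus strand: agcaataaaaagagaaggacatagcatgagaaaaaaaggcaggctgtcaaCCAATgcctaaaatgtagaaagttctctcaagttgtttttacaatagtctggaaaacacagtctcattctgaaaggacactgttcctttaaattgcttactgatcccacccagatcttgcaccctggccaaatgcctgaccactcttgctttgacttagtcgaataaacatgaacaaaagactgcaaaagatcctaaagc
COL4A1 and COL4A2, chr13:110307158-110307283, plus strand: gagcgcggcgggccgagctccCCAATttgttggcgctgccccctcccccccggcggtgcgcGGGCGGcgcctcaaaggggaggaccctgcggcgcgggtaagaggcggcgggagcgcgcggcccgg

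The COL16A1 stretch held 2 GC boxes and was 73.2% G or C. The COL13A1 stretch held 1 TATAAA and was 64.0% G or C, and that of COL28A1 held 1 CCAAT and was 39.6% G or C. The stretch between COL4A1 and COL4A2 held 1 GC box and 1 CCAAT in 126 bases. Windows from 250 bases before to 50 bases after a start site were at hand for 31 of the 43 genes, with 43 start sites in all. GGGCGG was found in 24 of these 43 windows, and in 45.0% of the windows of all 35116 start sites in the table. CCAAT was found in 13 and in 34.6% of all windows, and TATAAA in 7 and in 11.5% of all. The AP-1 site TGACTCA was in 0 of the 43 windows and in 4.95% of all, and the cyclic AMP response element TGACGTCA in 0 and in 1.85% of all. A match says only that these letters stand in the window.

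Between 47016495 and 70986593 counts were assigned to genes in a library. Libraries of 1 group differed beyond counting noise. The 2 control libraries stood farther apart than those of either clone, with a chi-square p under 0.05 for 58.5% of 15278 genes, against 47.4% of 15213 in Cl1 and 23.6% of 14925 in Cl10. DUSP1 was measured at 12.9 and 11.05 CPM (counts per 1000000 counts of the library, scaled by TMM) in the control, at 5.28 and 6.15 in Cl1 and at 8.61 and 7.22 in Cl10. Cl1 stood at -1.07 against the control on the log2 scale (adjusted p = 0.000292, edgeR's quasi-likelihood test with Benjamini-Hochberg adjustment, as throughout) and Cl10 at -0.59 (adjusted p = 0.0113). Markers of squamous epithelium summed to between 9851 and 11667 CPM in a library, and fibroblast markers to between 0.505 and 0.971 CPM, with LUM at 0 counts in all 6 libraries. The labels do not say that the libraries of a group came from separate cultures, so p-values measure only the spread between these libraries, which may be technical.

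Collagen chains took a small share of the RNA, and that share differed more between the 2 control libraries than between the means of the control and of either clone. The 43 genes held 0.116% and 0.0930% of the counts in the control, 0.112% and 0.117% in Cl1 and 0.0957% and 0.0972% in Cl10. COL17A1 alone, which is not among them, held between 0.142% and 0.196%. On the scale of CPM per kilobase of transcript, which allows levels of different genes to be compared, the 5 most abundant chains held between 50.7% and 57.0% of the summed level in each library. In bulk RNA, fewer cells that express a gene and less of its RNA per cell cannot be told apart.

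COL5A1, which encodes a chain of the fibrillar type V collagen, was the most abundant over the 6 libraries, with a mean of 26.9 CPM per kilobase. It was followed by the basement membrane chain COL4A2 at 17.2, the anchoring fibril chain COL7A1 at 15.8 and the beaded filament chain COL6A1 at 13.6. The X-linked basement membrane chains COL4A5 and COL4A6 had means of 12.3 and 12.1. COL16A1, a FACIT, had 10.3, COL6A2 9.65, the fibrillar chain COL27A1 8.94 and the FACIT chain COL9A3 7.87. The same 10 genes led when the length was taken as the union of all exons. COL16A1 changed its place most, from rank 12 in the control to rank 7 in Cl1 and rank 2 in Cl10.

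**Figure D1:**
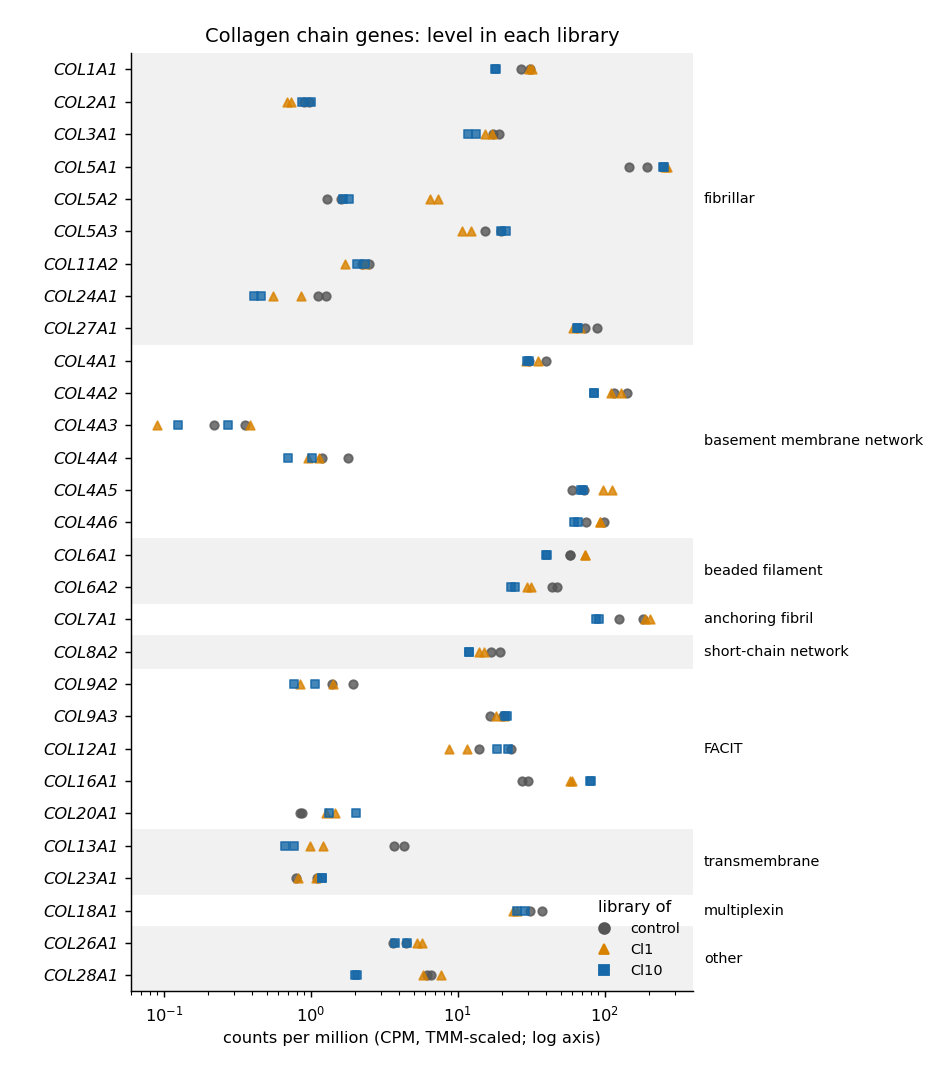
Level of each of the 29 reported collagen chain genes in each library, in CPM on a log axis, with control libraries as circles, Cl1 as triangles and Cl10 as squares, and genes grouped by collagen class. COL16A1 sat at 27.35 to 30.03 in the control, 57.7 to 59.3 in Cl1 and 78.8 to 80.2 in Cl10, and COL5A2 stood apart in Cl1 only, at 6.47 and 7.31.

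The 14 genes under the limit included partners of chains that were measured well. COL1A2, whose chain joins that of COL1A1 in type I collagen, had at most 2 counts in a library, while COL1A1 had between 871 and 2095. COL6A3, the large chain of type VI, had at most 2 counts, while COL6A1 had at least 1906 and COL6A2 at least 1111. COL9A1 had at most 1 count beside at least 896 of COL9A3, COL8A1 at most 5 beside at least 576 of COL8A2, and COL11A1 had 0 counts in every library beside at least 112 of COL11A2. COL22A1 was also at 0 in every library. A count of 0 allows up to 3 counts, or 0.0423 to 0.0638 CPM before TMM scaling depending on the library, and this limit covers counting error only. The others were COL6A5, COL6A6, COL14A1, COL15A1, COL19A1, COL21A1, COL25A1 and COL10A1. COL10A1, the collagen of hypertrophic cartilage, lay just outside the limit with 6 to 9 counts in a library, and COL4A3, with 6 to 19, lay just inside it. COL4A3 shares 838 exon bases with MFF-DT on the opposite strand, which had 25 to 60 counts. Without a stated strand setting, reads of these genes cannot be told apart there.

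The 43 genes lie on 17 chromosomes. Those called in a comparison are, in GENCODE v44 on hg38, COL5A2 (ENSG00000204262, chr2:189031898-189225312, minus strand, 54 exons), COL7A1 (ENSG00000114270, chr3:48564073-48595329, minus strand, 119 exons) and COL13A1 (ENSG00000197467, chr10:69801880-69964275, plus strand, 41 exons). The others are COL16A1 (ENSG00000084636, chr1:31652263-31704319, minus strand, 71 exons), COL24A1 (ENSG00000171502, chr1:85729233-86156943, minus strand, 60 exons) and COL28A1 (ENSG00000215018, chr7:7356203-7535873, minus strand, 35 exons). The counts are per gene and do not tell its transcripts apart.

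All 29 reported genes were tested in each comparison. In Cl1 against the control, 5 were higher with an adjusted p under 0.05 (COL5A2, COL16A1, COL4A5, COL5A1 and COL6A1), which is 17.2% of the 29, against 12.4% of the 20153 genes tested. A further 5, again 17.2%, were lower (COL13A1, COL12A1, COL5A3, COL6A2 and COL18A1), against 12.8%. The remaining 19 did not pass. With a 2-fold change as a second requirement, as used for calls, 2 were called higher (COL5A2 and COL16A1), or 6.90%, against 4.27% of all genes, and 1 lower (COL13A1), or 3.45%, against 3.27%. The median log2 fold change of the 29 was -0.12, and that of all genes tested was -0.01. These counts shifted when a library was left out, and the share of all genes in those fits is not given. Such a fit takes the lone library to vary like the other group, so its test leaves out the spread within the lone library's group. Fold changes of these fits are therefore given without p-values. Without control replicate 2, COL16A1 fell short of 2-fold, at 0.97 on the log2 scale.

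In Cl10 against the same control libraries, 3 genes were higher (COL16A1, COL20A1 and COL5A1), or 10.3%, against 20.6% of 19875 genes. Lower genes made up a larger share of the collagen chains than of all genes. They were 12, or 41.4%, against 21.8%: COL1A1, COL3A1, COL4A2, COL4A6, COL6A1, COL6A2, COL7A1, COL8A2, COL9A2, COL13A1, COL24A1 and COL28A1. With the 2-fold requirement, 1 was called higher (COL16A1), or 3.45%, against 5.98%, and 3 lower (COL13A1, COL24A1 and COL28A1), or 10.3%, against 7.44%. The median log2 fold change of the 29 was -0.34, and that of all genes tested was -0.01. The counts shifted when either control library was left out, and the share of all genes in those fits is not given.

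The clones also differed from each other, a comparison that does not use the control libraries. In Cl10 against Cl1, 3 genes were higher (COL12A1, COL5A3 and COL16A1), or 10.3%, against 24.9% of 19818 genes. As many as 12, or 41.4%, were lower, against 24.1%: COL1A1, COL3A1, COL4A2, COL4A5, COL4A6, COL5A2, COL6A1, COL6A2, COL7A1, COL8A2, COL26A1 and COL28A1. With the 2-fold requirement, 3 were called lower (COL5A2, COL7A1 and COL28A1), or 10.3%, against 6.28%. By edgeR's test 0 were called higher, against 4.47% of all genes, with 0 also at an unadjusted p under 0.05 and a 2-fold change, and 3 at an unadjusted p under 0.05 alone. DESeq2 called 1 higher, COL12A1, whose log2 fold change of 0.99 in edgeR lies at the edge. With 1 library left out it ranged from 0.80 to 1.22 in edgeR. The median of the 29 was -0.27, and that of all genes tested was -0.0012.

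**Figure D2:**
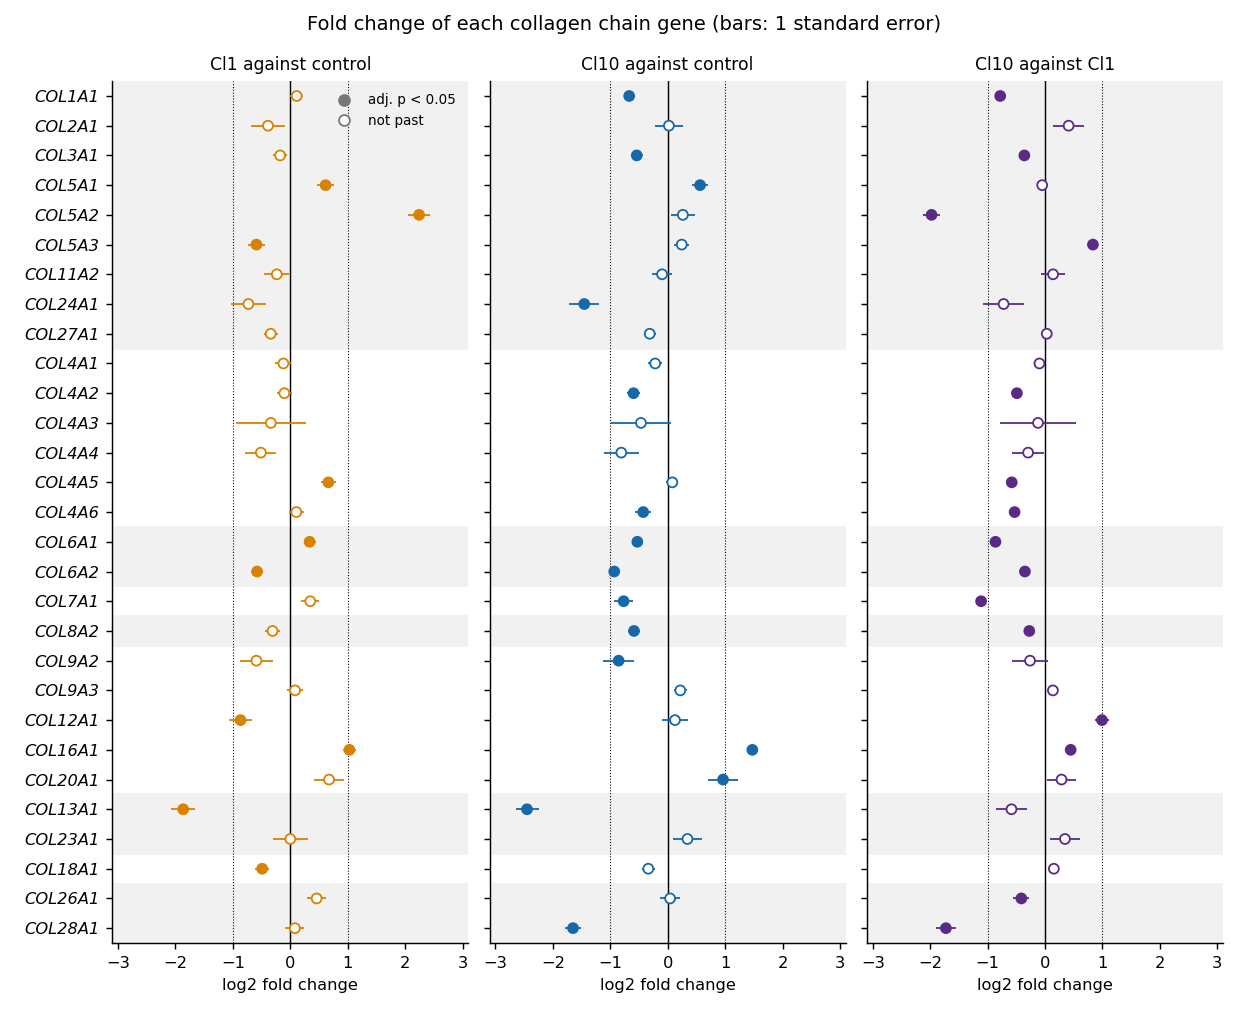
Log2 fold change of each reported gene in the 3 comparisons, with bars of 1 standard error from edgeR on 2 against 2 libraries. Filled points had an adjusted p under 0.05, open points did not, and dotted lines mark a 2-fold change. Filled points to the left of 0 number 5 in Cl1 against control, 12 in Cl10 against control and 12 in Cl10 against Cl1.

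Among the fibrillar collagens, COL5A1 and COL5A2 of type V rose in Cl1 and COL5A3 of the same type fell. COL5A1 was at 194 and 147 CPM in the control, 265 and 256 in Cl1 and 250 and 252 in Cl10. Both clones lay above both control libraries, and it rose in both, with a log2 fold change of 0.61 ± 0.14 (SE, 2 against 2 libraries) in Cl1 (adjusted p = 0.00764) and 0.56 ± 0.13 in Cl10 (adjusted p = 0.0139). Without Cl1 replicate 1 the value in Cl1 was 0.59 and does not pass. That in Cl10 does not pass when the median of its neighbours, the 50 nearest other genes tested on the chromosome, is subtracted (a median of 0.29, adjusted p = 0.148).

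COL5A2, the chain that pairs with COL5A1 in the main form of type V, was at 1.60 and 1.29 CPM in the control, 6.47 and 7.31 in Cl1 and 1.81 and 1.66 in Cl10. It was high in both Cl1 libraries alone. In Cl1 it rose by 2.24 ± 0.19 on the log2 scale (adjusted p = 4.74e-06), and Cl10 was 0.26 ± 0.21 above the control without passing (adjusted p = 0.339). Cl10 against Cl1 gave -1.98 ± 0.15 (adjusted p = 5.54e-07). Per kilobase, COL5A1 exceeded COL5A2 by 97.98 and 92.01 times in the control, 33.1 and 28.3 times in Cl1 and 112 and 123 times in Cl10.

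COL5A3, a further type V chain, moved the other way in Cl1. It was at 19.5 and 15.2 CPM in the control, 12.4 and 10.7 in Cl1 and 21.2 and 19.8 in Cl10. In Cl1 it fell by 0.59 ± 0.15 (adjusted p = 0.0117), which does not pass with the neighbours' median subtracted (adjusted p = 0.0803). With 1 library left out the value in Cl1 ranged from -0.75 to -0.40, and without Cl1 replicate 2 it does not pass. Cl10 was 0.83 ± 0.09 above Cl1 (adjusted p = 1.24e-05). The ratio of COL5A1 to COL5A3 per kilobase was 7.31 and 7.11 in the control, 15.8 and 17.7 in Cl1 and 8.66 and 9.37 in Cl10. These ratios were not tested.

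Of the chains of the interstitial fibrils, COL1A1 and COL3A1 were lower in Cl10. COL1A1 was at 30.8 and 26.8 CPM in the control, 30.5 and 31.7 in Cl1 and 17.95 and 18.12 in Cl10. It fell in Cl10 by 0.67 ± 0.10 against the control (adjusted p = 0.00192) and by 0.78 ± 0.07 against Cl1 (adjusted p = 2.17e-06). The 50 nearest other genes on chromosome 17 had a median of -0.58 in Cl10 against the control, and with that subtracted COL1A1 was at -0.09 (adjusted p = 0.480). COL3A1, on chromosome 2 next to COL5A2, was at 18.9 and 17.5, at 15.2 and 16.9 and at 11.7 and 13.3 CPM, and stood at -0.54 ± 0.11 on the log2 scale in Cl10 (adjusted p = 0.00698). With 1 library left out its value in Cl10 ranged from -0.63 to -0.44, and without Cl10 replicate 1 it does not pass.

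COL3A1 and COL5A2 lie tail to tail with 19151 bases between them. Per kilobase, COL3A1 exceeded COL5A2 by 14.7 and 16.8 times in the control, 2.92 and 2.88 times in Cl1 and 8.03 and 9.94 times in Cl10. COL24A1, a fibrillar collagen of developing bone and cornea, was at 1.12 and 1.27 CPM in the control, 0.861 and 0.550 in Cl1 and 0.410 and 0.458 in Cl10. It fell in Cl10 by 1.45 ± 0.26 (adjusted p = 0.00472), while its value in Cl1 was -0.73 ± 0.30 (adjusted p = 0.0960).

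COL27A1, a fibrillar collagen of cartilage, was lower than both control libraries in every clone library, at 88.7 and 73.0 CPM in the control, 60.3 and 67.3 in Cl1 and 65.6 and 64.2 in Cl10. Neither comparison passed (-0.34 ± 0.12, adjusted p = 0.0635, and -0.31 ± 0.11, adjusted p = 0.0519). It passed in 4 of 13 fits in Cl1 and in 7 of 13 in Cl10. Without control replicate 2 it was at -0.47 in Cl1 and -0.45 in Cl10. Without control replicate 1 it was at -0.20 in Cl1 and -0.17 in Cl10. COL2A1 and COL11A2, known from cartilage, stayed between 0.692 and 1.01 CPM and between 1.71 and 2.49 CPM, and their fold changes did not pass in any comparison.

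Of the 6 type IV chains, COL4A2 and COL4A6 were lower in Cl10 than in the control, COL4A5 was higher in Cl1, and the other 3 passed in neither clone. COL4A2 was at 141 and 116 CPM in the control, 129 and 110 in Cl1 and 85.0 and 84.8 in Cl10. It fell in Cl10 by 0.59 ± 0.11 against the control (adjusted p = 0.00478) and by 0.49 ± 0.07 against Cl1 (adjusted p = 0.00012), while Cl1 was at -0.10 ± 0.13 (adjusted p = 0.609). COL4A1, its partner across the shared stretch shown above, was at 39.5 and 30.4, at 34.99 and 29.18 and at 29.5 and 30.4 CPM, so the groups overlapped, and no comparison passed (-0.22 ± 0.13 in Cl10, adjusted p = 0.205). The ratio of COL4A1 to COL4A2 per kilobase was 0.276 and 0.258 in the control, 0.268 and 0.262 in Cl1 and 0.343 and 0.354 in Cl10.

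COL4A5 and COL4A6, which lie head to head on the X chromosome with 340 bases between them, are both chains of epithelial basement membranes. COL4A5 was at 72.1 and 60.1 CPM in the control, 97.9 and 111 in Cl1 and 68.9 and 70.5 in Cl10, and rose in Cl1 by 0.66 ± 0.13 (adjusted p = 0.00234). COL4A6 was at 98.4 and 73.8 in the control, 92.2 and 92.8 in Cl1 and 62.1 and 65.7 in Cl10. It was 0.10 ± 0.14 above the control in Cl1 (adjusted p = 0.617) and fell in Cl10 by 0.43 ± 0.14 (adjusted p = 0.0416). That last decrease does not pass with scaling by library size alone, without TMM (adjusted p = 0.0515), or with the neighbours' median subtracted (adjusted p = 0.158). With 1 library left out the value ranged from -0.63 to -0.21, and without Cl10 replicate 1 or 2 it does not pass. Against Cl1, COL4A5 fell in Cl10 by 0.58 ± 0.07 (adjusted p = 1.85e-05) and COL4A6 by 0.53 ± 0.06 (adjusted p = 1.13e-05). The ratio of COL4A5 to COL4A6 went from 0.749 and 0.833 in the control to 1.09 and 1.23 in Cl1 and 1.14 and 1.10 in Cl10. COL4A3 and COL4A4, best known from the kidney glomerulus, were at 0.0891 to 0.387 and 0.700 to 1.78 CPM and did not pass. In Cl10, COL4A4 stood at -0.81 ± 0.30 (adjusted p = 0.0663). Across the fits that kept all libraries, its adjusted p ranged from 0.00606 to 0.141.

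The chains of type VI lay on opposite sides of the control in Cl1 and were both lower in Cl10. COL6A1 was at 57.8 and 58.3 CPM in the control, 72.8 and 73.4 in Cl1 and 40.5 and 39.6 in Cl10. It fell in Cl10 by 0.53 ± 0.08 (adjusted p = 0.00177) and was 0.34 ± 0.11 higher in Cl1 (adjusted p = 0.0356). The increase in Cl1 stayed at 0.34 without Cl1 replicate 1 or 2 but does not pass in either fit. It also does not pass with library size alone (adjusted p = 0.0860) or with no filter on low counts (adjusted p = 0.0653). The same holds with the replicate number as a block (adjusted p = 0.0895). Both Cl1 libraries were above both control libraries. COL6A2 was at 43.9 and 47.2 CPM in the control, 29.6 and 31.3 in Cl1 and 24.5 and 23.1 in Cl10.

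COL6A2 fell in both clones, by 0.58 ± 0.11 in Cl1 (adjusted p = 0.00217) and by 0.93 ± 0.08 in Cl10 (adjusted p = 0.000286). Both genes lie on the same strand of chromosome 21, 93061 bases apart. Their ratio per kilobase was 1.08 and 1.01 in the control, 2.02 and 1.92 in Cl1 and 1.36 and 1.41 in Cl10, so the levels were close to equal in the control only. Ratios of this kind were not tested.

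**Figure D3:**
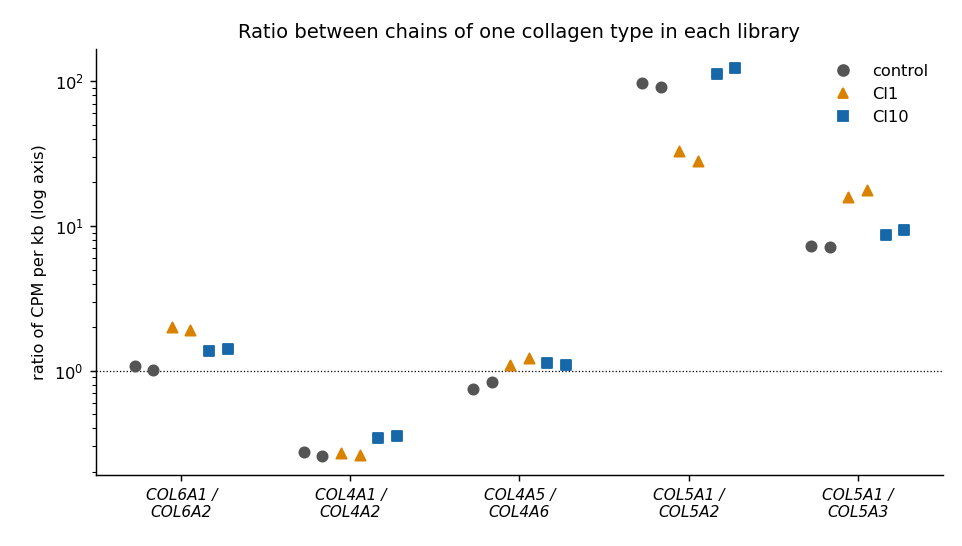
Ratio of CPM per kilobase between chains of 1 collagen type in each library, on a log axis, with the dotted line at equal levels and the 2 libraries of each group side by side. The COL6A1 to COL6A2 ratio sits near 1 in the control and at 2.02 and 1.92 in Cl1, and the COL5A1 to COL5A2 ratio drops to 33.1 and 28.3 in Cl1.

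COL7A1, the chain of anchoring fibrils, was at 181 and 125 CPM in the control, 188 and 202 in Cl1 and 91.7 and 87.7 in Cl10. Cl10 lay below all other libraries. Its decrease there was -0.77 ± 0.16 against the control (adjusted p = 0.00923) and -1.11 ± 0.06 against Cl1 (adjusted p = 4.85e-08). The control libraries decide what Cl1 shows. The log2 fold change was 0.35 ± 0.16 with both (adjusted p = 0.128), 0.64 without control replicate 1 and 0.11 without control replicate 2. In Cl10 it was -0.48 and -1.02 without these libraries.

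COL8A2, of the short-chain network collagens found in Descemet's membrane of the cornea, was at 19.3 and 16.7 CPM in the control, 13.9 and 15.2 in Cl1 and 11.92 and 11.98 in Cl10. It fell in Cl10 by 0.59 ± 0.11 (adjusted p = 0.0046), and its value in Cl1 was -0.31 ± 0.13 (adjusted p = 0.0944). Cl10 against Cl1 was at -0.27 ± 0.09 (adjusted p = 0.0236), which passed in 8 of 13 fits. With 1 library left out that value ranged from -0.34 to -0.22, and without Cl10 replicate 1 or 2 it does not pass. COL18A1, whose end fragment is endostatin, was at 37.2 and 31.1, at 23.5 and 25.1 and at 25.1 and 28.8 CPM. It fell in Cl1 by 0.49 ± 0.12 (adjusted p = 0.0104) and was at -0.34 ± 0.12 in Cl10 (adjusted p = 0.0530). The decrease in Cl1 does not pass with the neighbours' median subtracted (adjusted p = 0.0852). With 1 library left out its value ranged from -0.61 to -0.36, and without Cl1 replicate 1 it does not pass. COL18A1 shares 1563 exon bases with SLC19A1 on the opposite strand, which had 824 to 1582 counts, and without a stated strand setting reads of both genes cannot be told apart there.

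COL16A1 had the largest increase of the 29 genes in Cl10. It was at 30.03 and 27.35 CPM in the control, 57.7 and 59.3 in Cl1 and 78.8 and 80.2 in Cl10, so the 3 groups did not overlap and the order was control, Cl1, Cl10. Against the control it rose by 1.03 ± 0.11 on the log2 scale in Cl1 (adjusted p = 3.84e-05) and 1.47 ± 0.09 in Cl10 (adjusted p = 7.31e-05), and Cl10 was 0.45 ± 0.06 above Cl1 (adjusted p = 3.74e-05). It passed the test in all 13 fits of each comparison, and in Cl1 stood at 2-fold in 11 of them, with 0.96 under library size alone and 0.97 without control replicate 2. The 50 nearest other genes had medians of -0.07 in Cl1 and -0.05 in Cl10. COL16A1 shares 117 exon bases with PEF1-AS1 on the opposite strand, which had 10 to 23 counts, beside at least 1463 for COL16A1.

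COL12A1, a FACIT of dense connective tissue, was at 23.1 and 13.9 CPM in the control, 11.6 and 8.70 in Cl1 and 18.53 and 22.01 in Cl10. It fell in Cl1 by 0.87 ± 0.21 (adjusted p = 0.00925). The value moved to -0.45 without control replicate 1 and to -1.18 without replicate 2 of the control. Its value in Cl10 was 0.13 ± 0.22 (adjusted p = 0.674). It turned from 0.53 without control replicate 1 to -0.20 without control replicate 2, so its direction depends on the control library used. Cl10 was 0.99 ± 0.13 above Cl1 (adjusted p = 3.58e-05).

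COL9A3, at 16.5 to 21.7 CPM in all libraries, passed in no comparison. It shares 155 exon bases with TCFL5 on the opposite strand, which had 1515 to 2251 counts. COL9A2 was at 1.94 and 1.38 CPM in the control, 0.846 and 1.41 in Cl1 and 1.06 and 0.770 in Cl10. It fell in Cl10 by 0.85 ± 0.27 (adjusted p = 0.0402), which does not pass in DESeq2 (adjusted p = 0.0879). With 1 library left out the value ranged from -1.11 to -0.59. It does not pass without control replicate 1 or without Cl10 replicate 2. COL20A1 was at 0.868 and 0.841 in the control, 1.45 and 1.26 in Cl1 and 1.33 and 2.02 in Cl10. It rose in Cl10 by 0.96 ± 0.27 (adjusted p = 0.0256). With 1 library left out this value ranged from 0.64 to 1.25, and without Cl10 replicate 2 it does not pass.

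COL13A1, a transmembrane collagen of cell adhesion sites, was lower in both clones with the largest decrease among the 29 in each. It was at 3.65 and 4.28 CPM in the control, 0.980 and 1.20 in Cl1 and 0.769 and 0.666 in Cl10, with 32 to 248 counts in a library. It fell by 1.87 ± 0.21 in Cl1 (adjusted p = 6.6e-05) and by 2.45 ± 0.20 in Cl10 (adjusted p = 0.00021). Cl10 was at -0.58 ± 0.28 against Cl1 (adjusted p = 0.0970), so no order between the clones passed the test. Its 50 nearest other genes had medians of 0.04 and -0.01. COL23A1, also transmembrane, was at 0.794 to 1.20 CPM and did not pass in any comparison.

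COL28A1, a collagen with von Willebrand factor A domains, was at 6.57 and 6.13 CPM in the control, 5.77 and 7.70 in Cl1 and 1.98 and 2.06 in Cl10. The log2 fold change in Cl10 was -1.65 ± 0.14 against the control (adjusted p = 0.000244) and -1.73 ± 0.17 against Cl1 (adjusted p = 4.35e-06), with 0.08 ± 0.17 in Cl1 (adjusted p = 0.769). The 50 nearest other genes on chromosome 7 had a median of -0.84 in Cl10 against the control. With it subtracted, COL28A1 was at -0.81 (adjusted p = 0.0047), past the test and short of 2-fold. COL26A1 was at 3.62 and 4.41, at 5.25 and 5.74 and at 4.47 and 3.72 CPM. Cl10 was below Cl1, at -0.41 ± 0.14 (adjusted p = 0.0279), and 9 of 13 fits passed. The difference does not pass in DESeq2 (adjusted p = 0.111), with library size alone (adjusted p = 0.0755) or in one fit over all libraries (adjusted p = 0.0590). With 1 library left out it ranged from -0.55 to -0.29, and without Cl10 replicate 2 it does not pass.

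Levels per kilobase were also summed by class. FACITs summed to 14.9 and 14.9 in the control, 20.3 and 19.7 in Cl1 and 25.4 and 25.6 in Cl10. COL16A1 alone made up most of that difference, at 5.54 and 5.05 in the control, 10.6 and 10.9 in Cl1 and 14.5 and 14.8 in Cl10. The other 4 reported FACITs together were at 9.37 and 9.86, at 9.65 and 8.70 and at 10.8 and 10.7. Beaded filament chains summed to 26.5 and 27.6 in the control, 25.9 and 26.5 in Cl1 and 16.7 and 16.1 in Cl10. Basement membrane chains were at 53.9 and 43.1, at 54.3 and 52.6 and at 37.6 and 38.5. Fibrillar chains differed more between the 2 control libraries, 47.1 and 37.8, than between Cl1, at 50.5 and 50.7, and Cl10, at 47.4 and 47.6. The sums are levels and were not tested.

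The enzymes and chaperones that make collagen changed in both directions. Of 38 such genes in a list, 37 were tested. In Cl1, 7 (18.9%) were higher and 10 (27.03%) lower, against 12.4% and 12.8% of all genes, and the median log2 fold change was -0.04. In Cl10, 6 (16.2%) were higher and 16 (43.2%) lower, against 20.6% and 21.8% of all genes, with a median of -0.25. Cl10 against Cl1 had 8 (21.6%) higher and 18 (48.6%) lower, against 24.9% and 24.1%, with a median of -0.17. LOX, which crosslinks collagen and elastin, was at 31.0 and 29.6 CPM in the control, 105 and 94.7 in Cl1 and 58.2 and 61.1 in Cl10. It rose by 1.72 ± 0.11 in Cl1 (adjusted p = 7.97e-07) and by 0.98 ± 0.08 in Cl10 (adjusted p = 0.000215). ADAMTS3, which removes propeptides from procollagens, was at 3.56 and 2.77 CPM in the control, 1.29 and 1.53 in Cl1 and 0.154 and 0.104 in Cl10. It was lower at -1.18 ± 0.22 in Cl1 (adjusted p = 0.00206) and at -4.57 ± 0.31 in Cl10 (adjusted p = 0.000116).

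Of 15 genes for the hydroxylation and glycosylation of prolines and lysines, 7 (46.7%) were lower in Cl10 and 1 (6.67%) higher, against 21.8% and 20.6% of all genes. P4HA1, a catalytic subunit of prolyl hydroxylase, was at 40.1 and 43.0 CPM in the control, 52.6 and 42.2 in Cl1 and 20.4 and 20.1 in Cl10, and fell in Cl10 by 1.03 ± 0.08 (adjusted p = 0.00019). PLOD2, a lysyl hydroxylase, was at 64.2 and 66.7 in the control, 103 and 84.6 in Cl1 and 28.9 and 27.4 in Cl10. It rose in Cl1 by 0.53 ± 0.12 (adjusted p = 0.00808) and fell in Cl10 by 1.21 ± 0.08 (adjusted p = 0.000107), and its neighbours in Cl10 had a median of -0.55. The others called in Cl10 were FKBP14 at -1.42 with a neighbour median of -0.73, ADAMTS2 at -1.31 with 0.05 and, higher, COLGALT2 at 1.46 with 0.11.

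Receptors and binding partners of collagen were listed too. Of 10 receptor genes, 8 were tested. In Cl1, 1 (12.5%) passed higher and 1 lower, against 12.4% and 12.8% of all genes, namely DDR2, a receptor tyrosine kinase, at 1.26 ± 0.32 (adjusted p = 0.0136) and ITGA1, an integrin chain, at -0.60 ± 0.15 (adjusted p = 0.0116), beside neighbour medians of 0.25 and -0.28. In Cl10, ITGA2 was higher at 0.69 ± 0.15 (adjusted p = 0.0101) and MRC2, which takes up collagen, was lower at -0.90 ± 0.08 (adjusted p = 0.00026), beside a neighbour median of -0.52. In Cl10 against Cl1, 2 of the 8 were higher and 3 (37.5%) lower, against 24.9% and 24.1%. Of these, GP6 alone was called, higher at 1.41 ± 0.50 (adjusted p = 0.0315), with 7 and 12 counts in Cl1 and 22 and 25 in Cl10. Of 8 genes for small proteoglycans and fibril partners, 3 had at most 3 counts in every library. SPARC, a collagen-binding glycoprotein of the matrix, was at 743 and 782 CPM in the control and rose by 0.72 ± 0.14 in Cl1 (adjusted p = 0.00219) and by 0.38 ± 0.09 in Cl10 (adjusted p = 0.0118), beside neighbour medians of 0.27 and 0.33.

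Markers of other cell types were summed in each library. Of 6 fibroblast markers, 2 had at most 3 counts in every library, and the sums were 0.598 and 0.971 CPM in the control, 0.505 to 0.591 in Cl1 and 0.707 to 0.871 in Cl10. The 1 fibroblast marker that could be tested, PDGFRA, did not pass. Smooth muscle and pericyte markers, 3 genes, summed to between 3.22 and 5.93 CPM and were lowest in Cl10. ACTA2 was lower at -1.48 ± 0.30 in Cl1 (adjusted p = 0.00368) and at -2.87 ± 0.33 in Cl10 (adjusted p = 0.000722). RGS5 was lower in Cl10 at -1.28 ± 0.31 (adjusted p = 0.0153) and at 0.06 ± 0.25 in Cl1 (adjusted p = 0.897), and MYH11 passed in neither clone, at 0.10 and 0.02. Endothelial markers, 3 genes, summed to between 2.73 and 7.76 CPM, nearly all of it VWF, while PECAM1 was at or near 0. VWF was higher in Cl1 at 0.93 ± 0.23 (adjusted p = 0.0102) and at -0.13 ± 0.24 in Cl10 (adjusted p = 0.694), and CDH5, at most 0.700 CPM, was higher in Cl10 at 2.28 ± 0.62 (adjusted p = 0.0229). Leukocyte markers summed to between 0.250 and 0.598 CPM. The sums of the smooth muscle and endothelial markers reach the levels of the weaker collagen chains, among them COL13A1, COL24A1 and COL5A2. Their part in the collagen differences was not tested.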

How the data were processed

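RNA-seq libraries of A253 cells came from 3 groups, control, Cl1 and Cl10, with 2 in each. HISAT2 served the authors for alignment to hg38 and HTSeq for counting, and the deposited table holds raw counts by gene, not normalized. The annotation, the strand setting and the handling of reads that match several genes are not given in the sources used here. The labels and the methods name different library kits. The SOX2 experiment (4 samples) was not analysed here.

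Members were taken by name, and coordinates, exons and canonical transcript lengths from GENCODE v44 of hg38, in which all 43 were found. The genes, their classes and the other gene lists were chosen with earlier results of these data known. Named in full were genes called in a comparison and the 10 highest per kilobase, 14 in all, with the other genes that passed the test described more briefly.

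Counts were tested across all genes with edgeR 4.0.16 in R 4.3.3 (filterByExpr, TMM, quasi-likelihood test, Benjamini-Hochberg adjustment over all genes tested), each comparison with its own 4 libraries. Both clones share the 2 control libraries, so their comparisons are not independent. Genes were called at more than 2-fold in either direction with an adjusted p below 0.05. The standard error was obtained from the unshrunk log2 fold change, whose size was divided by the root of the F statistic. Levels are CPM scaled by TMM over the 6 libraries. The fit was tested on simulated counts. Alternatives were DESeq2 1.42.0 as a test and for size factors, library size alone, no filter, at least 10 counts in every library, one fit over all libraries, the replicate number as a block, the median of the 50 nearest other genes subtracted, and each library left out. With 2 against 2 libraries an exact permutation test of a single gene cannot go below p = 0.333, so none is given. Library totals of 47016495 to 70986593 counts set the precision.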

Additional observations from a re-analysis of the deposited data

Results flagged for a closer look

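The log2 fold changes of 3 collagen chain genes differed between the clones by more than 2-fold, tested as Cl10 against Cl1 with edgeR, where the control libraries cancel. All 3 were lower in Cl10, or 10.3% of the 29 tested, against 6.28% of 19818 genes. Higher were 0, against 4.47% of all genes. COL5A2 differed by -1.98 (2.24 in Cl1 and 0.26 in Cl10 against the control). COL28A1 differed by -1.73 (0.08 and -1.65). Its 50 nearest other genes had a median of -0.75 in the same comparison, and with that subtracted COL28A1 was at -0.98, short of 2-fold. COL7A1 differed by -1.11 (0.35 and -0.77), beside a neighbour median of 0.05. All 3 had an adjusted p under 0.05 in each of the 13 fits. Groups of 2 libraries are too small for a test of single outlying libraries.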

How the results depend on the processing

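Of 504 alternative values for the 14 named genes in the 3 comparisons, 463 kept their direction and their side of an adjusted p of 0.05, 20 newly passed, 11 no longer passed and 10 changed sign. In Cl1 against control, the genes called higher with a 2-fold change went from 2 to 1 under library size alone and to 5 with no limit on the fold change, and those called lower from 1 to 5 with no such limit. Lower genes past the test went from 5 to 3 with the neighbours' median subtracted. In Cl10 against control, the genes called higher went from 1 to 2 with no filter and to 3 with no limit on the fold change, and those called lower from 3 to 12 with no such limit. In Cl10 against Cl1, the genes called higher went from 0 to 1 under library size alone, in DESeq2 and with the neighbours' median subtracted, and to 3 with no limit on the fold change, and those called lower from 3 to 12 with no such limit. Apart from the fits with no fold limit, the share of all genes under these settings is not given. A shift of the collagen chain genes thus cannot be told from a shift of all genes. The cause of these shifts was not tested, apart from the fold limit, which removes genes by construction.

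With 1 library left out, the lone library was assumed to vary like the other group. In Cl1 the genes called then ranged from 1 to 2 higher and from 1 to 2 lower, and those past the test from 3 to 7 higher and from 4 to 10 lower. In Cl10 the genes called ranged from 1 to 2 higher and from 3 to 6 lower, and those past the test from 2 to 7 higher. In Cl10 against Cl1 the genes called higher ranged from 0 to 1. Among the 14 named genes, the values that changed sign were small and did not pass, with 1 exception. In Cl1, COL4A2 ranged from -0.24 to 0.042, COL4A6 from -0.085 to 0.32, COL9A3 from -0.059 to 0.24 and COL28A1 from -0.13 to 0.28. In Cl10, COL4A5 ranged from -0.050 to 0.21. COL12A1, which is not among the 14, ranged from -0.20 to 0.53 in Cl10 against the control. In Cl10 against Cl1, COL5A1 was at 0.023 under library size alone, and COL27A1 at -0.18 with the neighbours' median subtracted (adjusted p = 0.0343, the exception) and from -0.050 to 0.10 with a library left out.

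Replicate numbers did not pair the libraries: deviations of equally numbered libraries correlated at -0.068, -0.018 and 0.010 over 20582 genes. With the replicate block, 4 instead of 5 genes passed higher in Cl1, since COL6A1 did not (adjusted p = 0.0895), and the calls with the 2-fold requirement stayed at 2 higher and 1 lower. Depth limits the genes with few counts, such as COL4A3, whose 6 to 19 counts gave a standard error of 0.61 in Cl1.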
